A study of Caenorhabditis elegans with 60 samples.

Results

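The small RNAs described here are 22G-RNAs mapped to WAGO loci of Caenorhabditis elegans, compared between gravid adults and larvae of the fourth stage (L4). The table of stages lists 2434 WAGO loci, and 2001 of them had a mean of at least 10 over the 4 libraries compared and entered the tests; the other 433 did not. The 4 libraries were henn-1 mutant adults, wild type adults, henn-1 mutant L4 larvae and wild type L4 larvae, with 1 library each, out of 60 samples in the series. Mutants carried the allele henn-1(pk2295) on chromosome III, the wild type was the strain N2, adults were collected at 68 h and L4 larvae at 52 h, and all were grown at 20 C on plates with the E. coli strain OP50. RNA came from whole frozen worms and was treated with polyphosphatase, which makes the triphosphorylated 22G-RNAs available to ligation. The labels do not say how many animals or cultures went into a library. No genotype was replicated within a stage, so henn-1 and wild type served as the pair, and each stage was represented by 2 libraries of different genotype. The table holds no row for henn-1 itself, so the mutation was not checked in these 4 libraries.

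WAGO-class 22G-RNAs are antisense small RNAs that RNA-dependent RNA polymerases copy from a target transcript. They are loaded onto worm-specific Argonautes (WAGOs), among them HRDE-1, which acts in germline nuclei, and WAGO-1, which acts in the germline cytoplasm. Their production at most of these loci depends on the mutator proteins, and they silence transposons, pseudogenes and many protein-coding genes. HENN-1 methylates the 3′ ends of piRNAs and of the primary small RNAs bound by ERGO-1, which lie upstream of some 22G-RNAs. A hermaphrodite makes sperm during the L4 stage and oocytes as an adult, and a gravid adult also carries fertilised embryos, so whole worms of both stages differ in their germline and in what they hold.

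The deposited values are a normalized signal per locus. No source used here states how they were scaled, and the depth of the libraries is unknown. They summed over all 2434 loci to 211656 in henn-1 adults, 297012 in wild type adults, 149059 in henn-1 L4 larvae and 238767 in wild type L4 larvae. The adult sum was 1.42 times the L4 sum in henn-1 and 1.24 times in wild type. Each library was scaled to its sum, so the values below are a locus's part of the WAGO signal of its library, set to the mean sum of the 4 libraries, and are called the scaled signal. The number of loci with a deposited value under 5 was 195 in henn-1 adults and 11 in wild type adults, against 619 in henn-1 L4 larvae and 392 in wild type L4 larvae. The sources used here do not give the way in which the authors chose their WAGO loci, and its part in this imbalance was not tested.

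WAGO loci did not move as a block between the stages. A minority of loci had many times more 22G-RNA signal in adults, losses were fewer and smaller, and both genotypes showed both patterns. At 2-fold or more in both henn-1 and wild type, 301 loci were higher in adults (15.0% of the loci tested) and 46 were lower (2.30%). At 8-fold or more in both, 63 loci were higher (3.15%), and 15 of these were 16-fold or more higher, while 0 loci were 4-fold or more lower (0.00%). No locus was 2-fold or more higher in adults of one genotype and 2-fold or more lower in adults of the other.

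The test was limma on log2 of the scaled signal plus 1, with genotype as the pair and Benjamini-Hochberg adjustment over the 2001 loci. It leaves 1 residual degree of freedom per locus, so the spread is largely borrowed across loci, and it measures how far the stage difference varied between the genotypes. Under it 579 loci were higher in adults (28.9%) and 637 were lower (31.8%) at an adjusted p under 0.05, 1216 in all (60.8%). All 301 higher and all 46 lower loci past 2-fold in both genotypes were among these calls. Both adult libraries lay above both L4 libraries at 559 loci (27.9%), among them 296 of the 301, and below both at 624 (31.2%), among them 41 of the 46. The lower calls were mostly small, with a median log2 difference of -0.54, and 559 of the 637 were under 2-fold. On the values as deposited, with no scaling, the calls split into 874 higher (43.7%) and 107 lower (5.35%). The median log2 difference of all tested loci was then 0.32, against -0.07 on the scaled signal. The spread borrowed across loci changed too, with a limma adjusted p at nhr-204 of 4.0e-114, against 8.4e-05 on the scaled signal. The deposited calls included loci whose genotypes disagreed on the scaled signal, such as ins-17 (-0.16 in henn-1, 1.08 in wild type). The 301 and the 46 loci were called in the same direction under both scalings, which their choice by size favours. The account below leads with them because of that size in both genotypes. Smaller changes are given on the scaled signal, and the deposited values are added where they altered the call of a named locus. With stage alone in the fit, without the genotype pair, 69 of the 301 higher loci and 14 of the 46 lower loci were called. With the embryo libraries of both genotypes added to the fit, 271 of the 301 and 34 of the 46 were called.

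The minimum of 10 is passed more easily by a locus that is high in adults. Among the 301 higher loci, 199 had both deposited L4 values under 10. Of the 1695 tested loci whose L4 mean alone was at least 10, 82 were 2-fold or more higher in adults of both genotypes (4.84%) and 46 were lower (2.71%). The loci closest to the minimum were T21C12.4, left out with a mean of 9.99, and cdc-25.2, kept with 10.03. Closest to the 2-fold border were gpa-4, counted as higher with a log2 difference of 1.00 in its less changed genotype, and tag-312, counted as lower with -1.01.

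**Figure D1:**
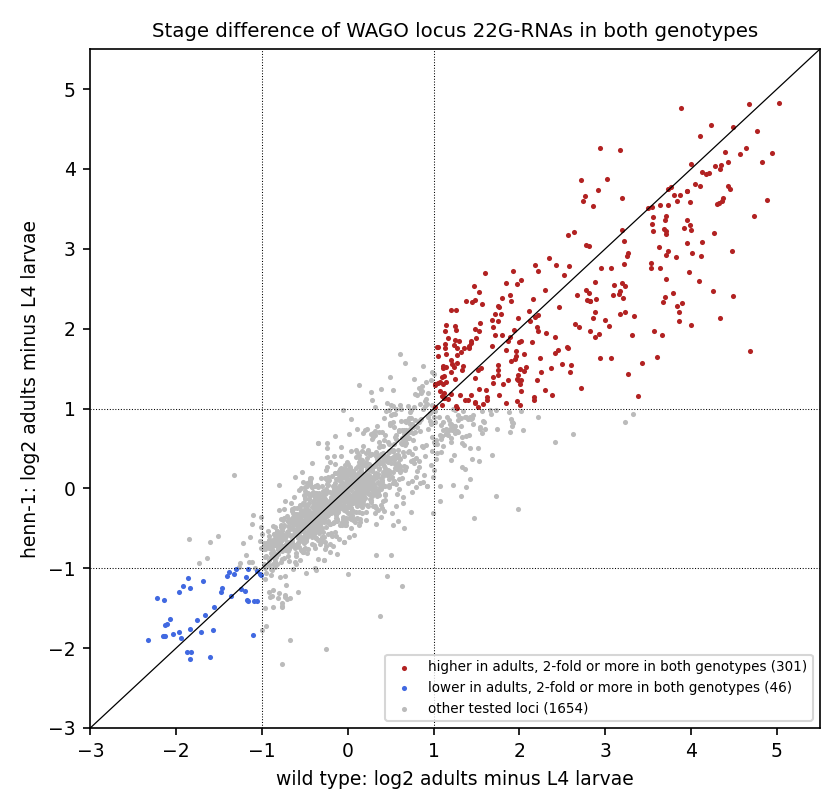
Each point is 1 of the 2001 tested WAGO loci; the vertical axis is the log2 difference, adults minus L4 larvae, of log2(scaled signal + 1) in henn-1 and the horizontal axis the same in wild type, with 1 library per stage and genotype. Dotted lines mark 2-fold and the diagonal marks equal differences; the red loci (301) run from the 2-fold lines to beyond 4 on both axes, while the blue loci (46) end near -2.

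The stage differences of henn-1 and of wild type ran together over the 2001 loci, with Pearson's r of 0.93 and Spearman's rho of 0.91, given as a description since loci share their libraries. In all, 793 loci were higher in adults of both genotypes, 962 were lower in both and 246 differed in sign. A further 108 loci were 2-fold or more higher in adults of the wild type alone and 35 of henn-1 alone. Likewise 21 loci were 2-fold or more lower in adults of the wild type alone and 38 of henn-1 alone. Among the 301 higher loci the stage difference was smaller in henn-1 than in wild type at 189, with a median difference of -0.24 on the log2 scale. With 1 library per genotype and stage, this difference between genotypes could not be tested.

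Among loci whose higher stage mean passed the median of the tested loci, the largest increases were at genes for a nuclear receptor, a histone demethylase and an SCF ubiquitin ligase adaptor, beside loci of unstated function. The nuclear hormone receptor gene nhr-204 (R02C2.4) had a scaled signal of 129 in henn-1 adults and 147 in wild type adults, against 3.58 in henn-1 L4 larvae and 3.56 in wild type L4 larvae. Its log2 difference was 4.93 (SE 0.12, limma adjusted p = 8.4e-05). The histone H3 lysine 27 demethylase gene jmjd-3.1 (F18E9.5) had 339.9 and 394 in henn-1 and wild type adults, against 11.08 and 14.5 in henn-1 and wild type L4 larvae. Both genes lay below the median locus in the larval libraries and above it in the adult libraries, and the stages did not overlap. For jmjd-3.1 the log2 difference was 4.74 (SE 0.11, limma adjusted p = 8.4e-05). The gene skr-21 (K08H2.1), a homologue of the SCF adaptor Skp1, had 167 and 186 in henn-1 and wild type adults, against 6.31 and 7.33 in henn-1 and wild type L4 larvae, a log2 difference of 4.504 (SE 0.10). The pseudogene Y60A9A.3 had 229.6 and 295 in henn-1 and wild type adults, against 9.38 and 9.85 in henn-1 and wild type L4 larvae, a log2 difference of 4.62 (SE 0.12). Thus protein-coding genes and pseudogenes both stood among the steepest gains.

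The other 6 of the 10 largest increases above that median signal ran from 4.31 to 4.57 on the log2 scale. The gene tag-303 (C52B11.2, named inso-1 in RefSeq) had 117 in henn-1 adults and 159 in wild type adults, against 5.12 in henn-1 and 5.41 in wild type L4 larvae. The uncharacterised genes F02E11.4 and K07E3.2 had 120.2 and 110.4 in henn-1 adults and 199 and 98.3 in wild type adults, against 6.14 and 5.12 in henn-1 L4 larvae and 6.07 and 3.19 in wild type L4 larvae. For T22B2.2 the wild type L4 value of 13.8 was above the henn-1 L4 value of 6.14, and both lay far under the adults' 193 in henn-1 and 218 in wild type. C24H12.7 and T22B2.5 were below 2 in both L4 libraries, at 1.53 and 1.71 in henn-1 and 0.83 and 1.56 in wild type. In adults they had 45.7 and 49.3 in henn-1 and 55.4 and 52.8 in wild type. Folds against such low larval values carry a large counting error that cannot be computed without the depth.

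**Figure D2:**
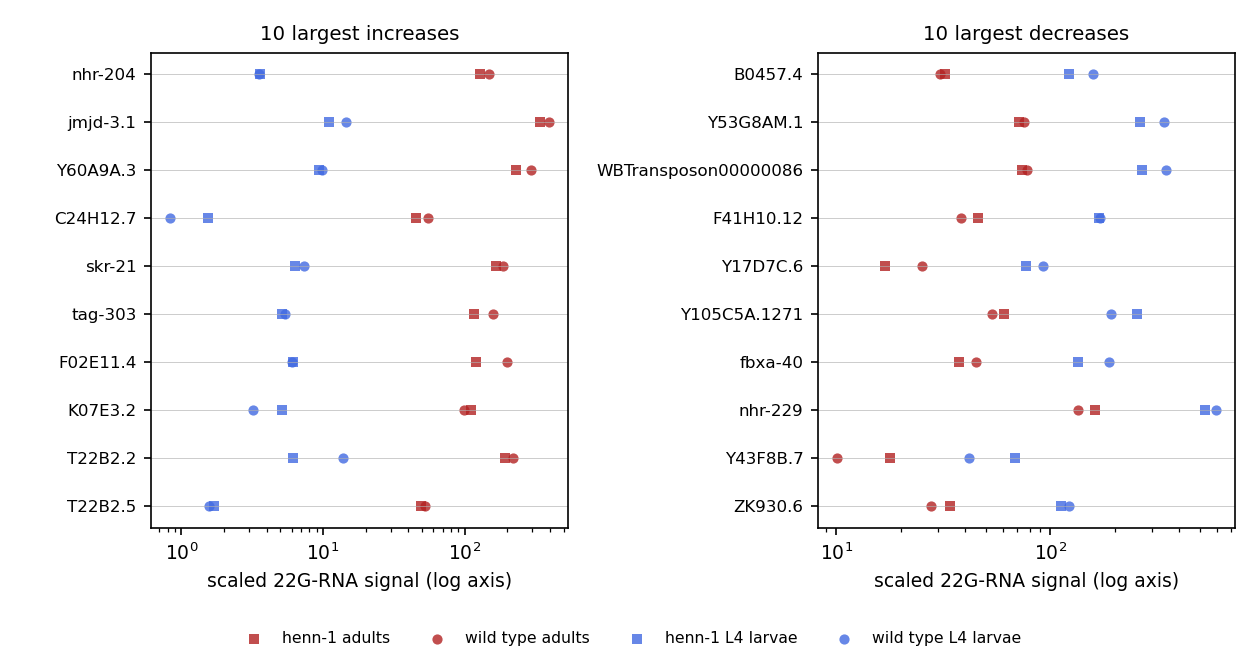
Scaled 22G-RNA signal (log axis) of the 10 loci with the largest increases (left panel) and the 10 with the largest decreases (right panel) in each of the 4 libraries, taken from loci whose higher stage mean passed the median; red marks are adults, blue marks L4 larvae, squares henn-1 and circles wild type. In every row both adult marks lie on one side of both larval marks, and nhr-204 shows the widest gap on the left and B0457.4 on the right.

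Nuclear hormone receptor genes, which code for ligand-regulated transcription factors and form an expanded family in nematodes, held several of the strong gains. Of 17 tested, 6 rose in adults and 2 fell, against 28.9% and 31.8% of all tested loci. On the deposited values 11 rose and 1 fell, against 43.7% and 5.35% of all tested loci. All 6 risers were past 2-fold in both genotypes (35.3% of the list, against 15.0% of all tested loci), and the median of the list was 0.12, against -0.07 over all loci. After nhr-204 came nhr-3, with 47.6 and 41.8 in henn-1 and wild type adults against 2.56 and 2.15 in henn-1 and wild type L4 larvae (log2 difference 3.77, SE 0.20, limma adjusted p = 0.00041). Next, nhr-228 had 54.7 and 46.0 in henn-1 and wild type adults against 3.77 and 2.76 in henn-1 and wild type L4 larvae, a log2 difference of 3.59. The receptors nhr-58, nhr-146 and nhr-249 followed with 2.62, 2.13 and 1.62. The other direction was led by nhr-229, which had 161 in henn-1 adults and 135 in wild type adults, against 531 in henn-1 L4 larvae and 594 in wild type L4 larvae (log2 difference -1.92, SE 0.13, limma adjusted p = 0.00066).

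F-box genes, whose proteins present substrates to SCF ubiquitin ligases, were the largest gene family among the lists, with 75 tested loci. In adults 25 rose and 20 fell, against 28.9% and 31.8% of all tested loci. At 2-fold or more in both genotypes 16 rose (21.3%, against 15.0%) and 3 fell (4.00%, against 2.30%). Without scaling, 39 rose and 5 fell, against 43.7% and 5.35% of all tested loci. The steepest gains were fbxc-18 at 4.39, fbxa-97 at 4.25, fbxb-46 at 3.98, fbxb-49 at 3.95 and fbxb-45 at 3.95 on the log2 scale. In fbxb-45 the scaled signal was 48.2 and 39.1 in henn-1 and wild type adults, against 2.56 and 1.33 in henn-1 and wild type L4 larvae. For fbxc-37 it was 76.3 and 72.8 in henn-1 and wild type adults, against 6.31 and 5.30 in henn-1 and wild type L4 larvae (log2 difference 3.48, SE 0.12, limma adjusted p = 0.00012). These genes had little larval signal and stood well apart by stage in both genotypes. Of the 16, 8 belong to the subfamily named fbxb, 5 to fbxc and 3 to fbxa. In the opposite direction fbxa-40 had 37.3 and 45.1 in henn-1 and wild type adults, against 135 and 188 in henn-1 and wild type L4 larvae (log2 difference -1.93, SE 0.11, limma adjusted p = 0.00048). The other F-box losses were fbxa-52 at -1.42 and fbxb-95 at -1.36.

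Genes with MATH and BTB domains, which serve as substrate adaptors of cullin 3 ubiquitin ligases, gave 8 rises and 6 falls among 30 tested loci (28.9% and 31.8% of all loci rose and fell). At 2-fold or more in both genotypes 3 were higher (10.0%, against 15.0% of all loci) and 0 lower, with a median of 0.05. Without scaling, 15 rose and 1 fell, against 43.7% and 5.35% of all tested loci. The steepest was bath-31, with 34.7 and 68.1 in henn-1 and wild type adults against 2.73 and 3.56 in henn-1 and wild type L4 larvae, a log2 difference of 3.59 (SE 0.23, limma adjusted p = 0.00049). Next were bath-41 at 1.74 and bath-10 at 1.45.

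Several genes of the small RNA machinery are themselves WAGO loci. Those called on the scaled signal in the lists of this paragraph had more 22G-RNAs in adults. The helicase gene eri-6, outside these lists and described below, was called lower at -0.34. Of 6 mutator, RNA-dependent RNA polymerase and RNAi factor genes tested, 4 rose and 0 fell, against 28.9% and 31.8% of all tested loci. There were 0 falls at an unadjusted limma p under 0.05. On the deposited values all 6 rose, where 43.7% of all tested loci rose and 5.35% fell. The DEAD-box helicase gene smut-1 (Y38A10A.6), a paralogue of mut-14, had 31.1 and 25.1 in henn-1 and wild type adults against 6.48 and 7.11 in henn-1 and wild type L4 larvae (log2 difference 1.89, SE 0.19, limma adjusted p = 0.0018). The gene of the double-stranded RNA channel sid-1 had 332 and 203 in henn-1 and wild type adults, against 173 and 139 in henn-1 and wild type L4 larvae, a log2 difference of 0.74. In rde-11 (B0564.11), which codes for a partner of RDE-10 in RNA interference, genotype outweighed stage. Its signal was 533 and 202 in henn-1 and wild type adults, against 382 and 141 in henn-1 and wild type L4 larvae, a log2 difference of 0.50. The polymerase gene rrf-2 differed by 0.46. The only tested Argonaute gene was wago-2 (F55A12.1), at 206 and 271 in henn-1 and wild type adults against 39.6 and 104 in henn-1 and wild type L4 larvae (log2 difference 1.87, SE 0.24, limma adjusted p = 0.0039).

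Other short lists held single loci that gained. The insulin-like peptide gene ins-5 had 44.5 and 90.2 in henn-1 and wild type adults, against 2.39 and 5.85 in henn-1 and wild type L4 larvae (log2 difference 3.74, SE 0.14, limma adjusted p = 0.00014). The other tested insulin gene, ins-17, had 2.48 and 89.2 in henn-1 and wild type adults against 2.90 and 41.8 in henn-1 and wild type L4 larvae, a log2 difference of 0.46 that was not called (limma adjusted p = 0.27). It was called on the deposited values, at 0.79 (limma adjusted p = 0.0074). Of 5 histone genes tested, 3 rose and 0 fell, against 28.9% and 31.8% of all tested loci, namely his-35 (H2A) at 1.47, his-67 (H4) at 1.12 and his-31 (H4) at 0.62. The authors' counting may divide reads among near-identical histone copies. The pseudogene K09C4.3, named hsp-2 in RefSeq, rose by 2.40. Of 4 pals genes tested, 2 rose and 1 fell, against 28.9% and 31.8% of all tested loci, and 0 passed 2-fold in both genotypes. The risers were pals-22 (C29F9.1) at 1.14 and pals-25 (T17A3.2) at 0.95, a pair of antagonistic regulators of the response to intracellular pathogens. Another member, pals-18 (Y82E9BR.21), was called lower at -0.50, but at -0.10 on the deposited values it was not called.

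Lists for cells and tissues were short, since few such genes are WAGO loci, and none stood for a tissue as a whole. Genes of oogenesis and eggshell, vitellogenins and intestine had 0 loci listed. Of 5 spermatogenesis genes, 2 rose and 3 fell, against 28.9% and 31.8% of all tested loci, and 0 passed 2-fold in both genotypes. The translational regulator cpb-1, needed for spermatogenesis, rose by 1.04, while the sperm ferlin gene fer-1 (-0.68) and spe-47 (Y23H5A.4, -0.65) were lower; on the deposited values the last 2 were at -0.28 and -0.25 and not called. Muscle genes (lev-11 and ttn-1) and neuron genes (egl-21 and nlp-12) had 0 calls among 2 tested loci each in limma, with adjusted p from 0.13 to 0.82 and 0 loci at an unadjusted p under 0.05. On the deposited values lev-11, a tropomyosin gene, was called higher at 1.15 (limma adjusted p = 0.0011). On the scaled signal it differed by 0.11 in henn-1 and by 1.43 in wild type. Of 13 cuticle collagen and moulting genes, 1 rose, the moulting gene mlt-8, and 4 fell (28.9% and 31.8% of all tested loci). The deposited values gave 4 rises and 1 fall, against 43.7% and 5.35% of all tested loci. In mlt-8 the signal was 14.7 and 24.6 in henn-1 and wild type adults, against 5.14 and 6.02 in henn-1 and wild type L4 larvae, a log2 difference of 1.61. Of 4 C-type lectin genes 3 fell on the scaled signal (31.8% of all tested loci fell), with log2 differences of -0.58 to -0.99. On the deposited values these were -0.17 to -0.61 with limma adjusted p from 0.071 to 0.46.

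Chemoreceptor genes, which code for receptors of sensory neurons, held 4 rises and more numerous small decreases on the scaled signal. Of 23 tested, 4 rose and 11 fell, against 28.9% and 31.8% of all tested loci, with a median of -0.31. The 4 rose by 2-fold or more in both genotypes (17.4%, against 15.0% of all loci), and the 11 fell by less than 2-fold. The 2-fold share is near that of all loci. The deposited values gave 6 rises and 1 fall, against 43.7% and 5.35% of all tested loci, with a median of 0.08. The risers were srh-34 at 3.45, str-268 (Y116A8C.40) at 1.55, sra-35 at 1.301 and srd-70 at 1.21. For sra-35 the signal was 26.0 and 46.5 in henn-1 and wild type adults, against 11.01 and 16.6 in henn-1 and wild type L4 larvae. Among those that fell, srd-50 had 24.7 and 26.0 in henn-1 and wild type adults against 44.1 and 49.2 in henn-1 and wild type L4 larvae, a log2 difference of -0.86 (SE 0.10, limma adjusted p = 0.0032).

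Decreases were led by uncharacterised genes and pseudogenes. The steepest was B0457.4, with 32.1 and 30.5 in henn-1 and wild type adults against 122 and 158 in henn-1 and wild type L4 larvae (log2 difference -2.12, SE 0.14, limma adjusted p = 0.00062). Next came WBTransposon00000086 and the coding sequence Y53G8AM.1, whose values differed by less than 5% in each library. They are not independent, but each is counted among the 46 losses and the 10 largest decreases. The transposon had 73.6 and 77.6 in henn-1 and wild type adults, against 269 and 347 in henn-1 and wild type L4 larvae (log2 difference -2.001, SE 0.12). F41H10.12 had 45.8 and 38.2 in henn-1 and wild type adults, against 168 and 170.4 in henn-1 and wild type L4 larvae (log2 difference -1.99, SE 0.12). At each of these loci both adult libraries lay well below both larval ones. Among the 10 largest decreases above the median signal were also 3 pseudogenes, Y17D7C.6 (-1.98), Y43F8B.7 (-1.91) and a pseudogene on clone Y105C5A (-1.94), and the gene ZK930.6 (-1.90). In Y17D7C.6 the signal was 16.8 and 25.3 in henn-1 and wild type adults, against 77.1 and 92.9 in henn-1 and wild type L4 larvae.

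Among losses outside the naming rule, chosen after their values were seen, were acdh-1 and csp-3. The acyl-CoA dehydrogenase gene acdh-1, which acts in propionate breakdown, had 15.7 and 10.5 in henn-1 and wild type adults against 40.2 and 44.04 in henn-1 and wild type L4 larvae, a log2 difference of -1.63. The caspase homologue csp-3 had 33.9 and 19.6 in henn-1 and wild type adults, against 72.5 and 50.5 in henn-1 and wild type L4 larvae, a log2 difference of -1.20.

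ERGO-1 targets, genes and pseudogenes whose 22G-RNAs are triggered by the primary small RNAs of the Argonaute ERGO-1, changed in both directions. Of 27 tested, 5 rose and 13 fell, against 28.9% and 31.8% of all tested loci, with a median of -0.48. At 2-fold or more in both genotypes 3 rose and 3 fell (11.11% each), against 15.0% and 2.30% of all tested loci. On the deposited values 6 rose and 11 fell, against 43.7% and 5.35% of all tested loci. The list's median stayed below that of all loci, by 0.41 on the scaled and 0.39 on the deposited signal. E01G4.5 had 316 in henn-1 adults and 671 in wild type adults, against 53.5 in henn-1 and 70.9 in wild type L4 larvae (log2 difference 2.88, SE 0.18, limma adjusted p = 0.00051). F52D2.6 rose by 2.31 and F39F10.4 by 2.79. Y17D7B.4 went the other way, with 53.8 and 352 in henn-1 and wild type adults against 235 and 1072 in henn-1 and wild type L4 larvae (log2 difference -1.86, SE 0.15, limma adjusted p = 0.00099). Here the stages overlapped, because henn-1 was below wild type at both stages, and the loss was seen within each genotype. The other losses past 2-fold in both genotypes were T08B6.2 at -1.47 and W04B5.2 at -1.24. ZK402.2, at -1.39 on average, missed that count by its smaller genotype difference of -0.99. C36A4.11 and K06B9.6 had near-identical values and both differed by -0.82, so they are not independent.

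Transposons, the class that WAGO 22G-RNAs are best known to silence, changed little. Of 174 tested, 117 were called lower and 10 higher on the scaled signal, against 31.8% and 28.9% of all tested loci. On the deposited values 2 were called lower and 16 higher, against 5.35% and 43.7% of all tested loci. The median was -0.45 on the scaled and -0.06 on the deposited signal, in both cases 0.38 below the median of all tested loci. Of the 117, 116 were under 2-fold. Copies are not independent, since 144 of the 174 had another locus within 5% of their value in each library. The 10 called higher carry neighbouring identifiers from WBTransposon00000434 to WBTransposon00000444 and had similar levels, so they may share reads. They had 66.5 to 94.8 in henn-1 adults and 86.1 to 122 in wild type adults, against 36.5 to 44.5 in henn-1 L4 larvae and 35.7 to 43.3 in wild type L4 larvae, with log2 differences of 0.92 to 1.28.

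Pseudogenes were spread more widely than transposons. Of 154 tested, 37 rose and 74 fell, against 28.9% and 31.8% of all tested loci. At 2-fold or more in both genotypes 17 were up (11.04%, against 15.0%) and 8 down (5.19%, against 2.30%). The median was -0.38, and 0.02 on the deposited values, where 46 rose and 20 fell (43.7% and 5.35% of all tested loci). Beside Y60A9A.3, T27E7.10 had 147 and 185 in henn-1 and wild type adults against 16.9 and 26.2 in henn-1 and wild type L4 larvae, a log2 difference of 2.91. C01G6.10, a strong locus at both stages, had 926 and 1113 in henn-1 and wild type adults, against 215 and 255 in henn-1 and wild type L4 larvae (log2 difference 2.11, SE 0.09, limma adjusted p = 0.00021). By class of the table, the 301 gains held 281 genes, 17 pseudogenes, 2 coding sequences and 1 transposon, and the 46 losses held 36 genes, 8 pseudogenes, 1 coding sequence and 1 transposon.

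**Figure D3:**
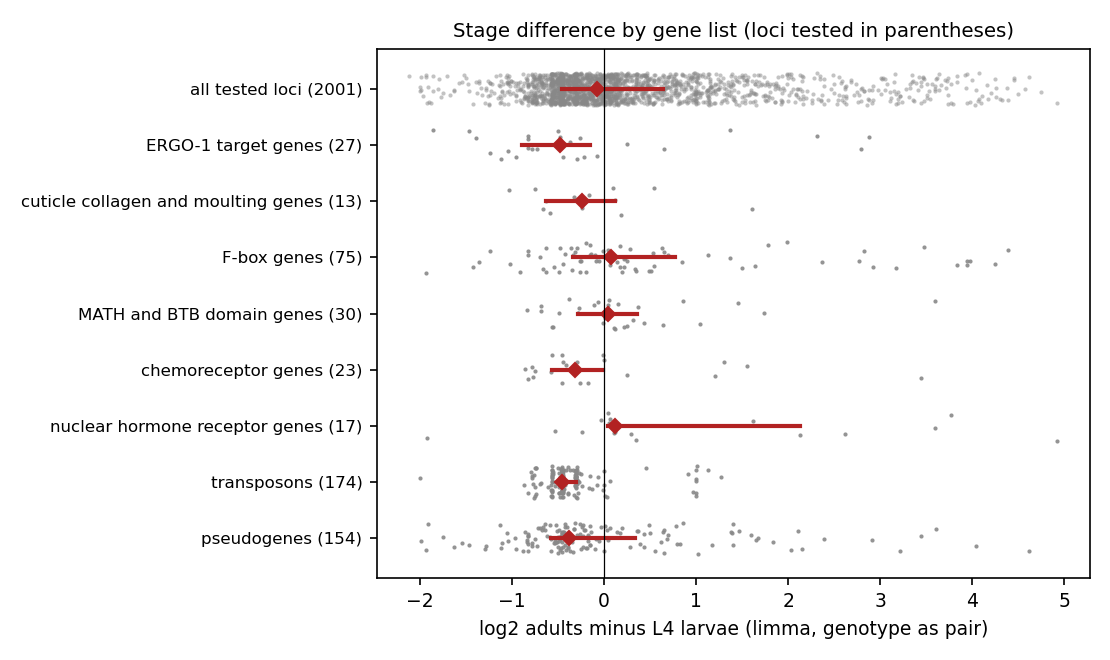
Log2 difference, adults minus L4 larvae (limma, genotype as the pair), of all 2001 tested loci and of the lists with 10 or more tested loci; grey points are loci, red diamonds medians and red bars the quartiles. Nuclear hormone receptor genes and F-box genes have long tails to the right, while transposons sit in a narrow band around -0.45.

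The strongest loci of the table changed by less than 2-fold on average. WBTransposon00000216 had the highest signal per locus at both stages, with 3095 and 2777 in henn-1 and wild type adults against 4754 and 4642 in henn-1 and wild type L4 larvae (log2 difference -0.68; -0.27 and not called on the deposited values). F37H8.2 had 2760 in henn-1 adults and 2231 in wild type adults, against 2354 in henn-1 and 2172 in wild type L4 larvae, and was not called on the scaled signal (log2 difference 0.13, limma adjusted p = 0.18) but was on the deposited signal (0.54, limma adjusted p = 0.034). The helicase gene eri-6, which acts with ERGO-1 upstream of 22G-RNAs, had 2283 and 2219 in henn-1 and wild type adults against 2858 and 2822 in henn-1 and wild type L4 larvae. Its log2 difference was -0.34 on the scaled signal, where it was called, and 0.07 on the deposited signal, where it was not. W03H9.2 (0.08, and 0.49 and called on the deposited signal), the pseudogene Y23H5A.1 (0.35, named cars-2 in RefSeq), C04G2.10 (-0.53, and -0.12 and not called on the deposited signal) and the pseudogene Y59H11AR.6 (-0.97) completed this group. Signal is per locus and not per length, so these values do not compare abundance between loci of different size.

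The 301 higher loci together held 10.1% of the WAGO signal in henn-1 adults and 12.8% in wild type adults, against 1.89% in henn-1 L4 larvae and 2.25% in wild type L4 larvae. The 46 lower loci held 0.95% in henn-1 adults and 1.33% in wild type adults, against 2.72% in henn-1 and 3.90% in wild type L4 larvae. These shares describe the choice of the loci. The remaining 1654 tested loci had a median scaled signal of 41.6 in adults, against 41.6 in L4 larvae.

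Embryo libraries of the same table, made from egg preparations of both genotypes and not used in choosing the loci, showed where the 2 groups stood at another stage. The higher loci held 18.3% of the WAGO signal in henn-1 embryos and 27.1% in wild type embryos, and the lower loci 0.78% in henn-1 and 0.63% in wild type embryos. In the order of stages, the median scaled signal of the higher loci was 55.5 in embryos, 6.46 in L4 larvae and 36.3 in adults. By genotype it was 34.6 in embryos and 33.2 in adults of henn-1, and 74.2 and 39.8 in those of wild type. The median of the lower loci was 7.56 in embryos, 111 in L4 larvae and 32.7 in adults. For the other 1654 loci it was 25.5 in embryos. By these medians, loci that gained in gravid adults were also high in embryos and loci that lost were low there, with exceptions such as the loss locus W04B5.2, at 636 in henn-1 and 463 in wild type embryos. Among single loci, E01G4.5 had 4496 in henn-1 and 9143 in wild type embryos, and nhr-204 had 271 and 374. At the other end, B0457.4 had 1.89 in henn-1 and 3.02 in wild type embryos, and nhr-229 had 4.96 and 7.48. Gravid adults hold embryos, whose contribution to the adult signal was not tested; in bulk samples, fewer cells of a type and less RNA per cell cannot be told apart.

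**Figure D4:**
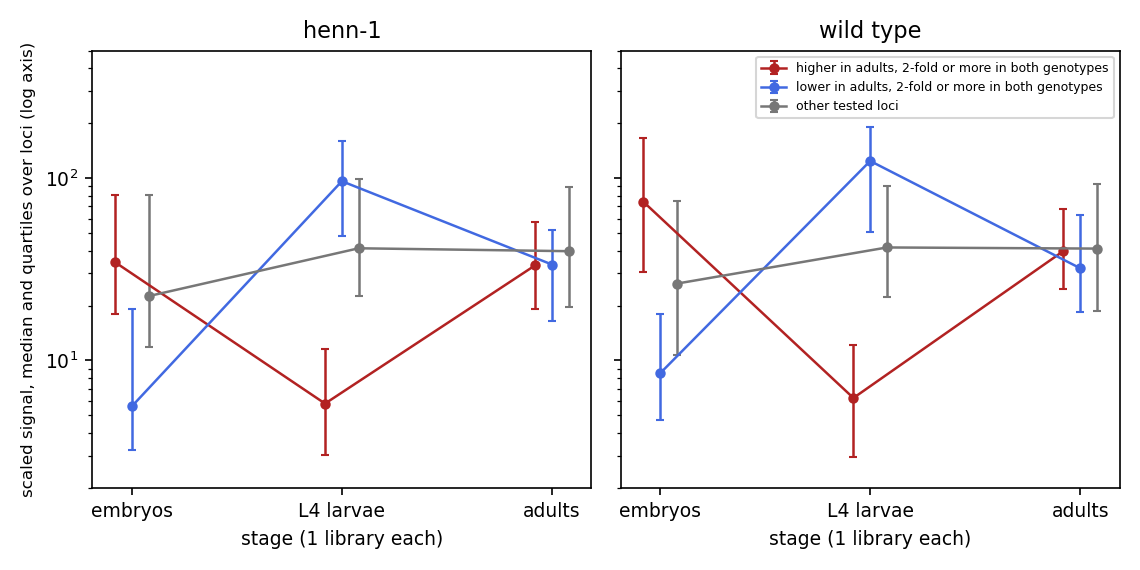
Median scaled signal over loci (log axis, bars are the quartiles) in embryos, L4 larvae and adults of henn-1 (left) and wild type (right), 1 library per point, for the 301 loci higher in adults, the 46 lower and the other 1654. The L4 and adult points follow from the choice of the loci; in embryos, which were not used for it, the red medians lie above and the blue medians below the grey ones.

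Gonads dissected from wild type gravid adults (3 libraries, 68 to 70 h) came from a table normalized by itself, so each locus was set against whole wild type adults by its part of the WAGO signal, without a test. The higher loci held 9.61% to 9.86% of the signal in the gonad libraries, against 12.8% in whole wild type adults. The lower loci held 0.33% to 0.35% in gonads, against 1.33% in whole wild type adults. Of the 46 lower loci, 35 had a share 2-fold or more lower in gonads than in whole adults (median log2 ratio -2.55), as had 103 of the 301 higher loci (median -0.64) and 152 of the other 1654 (median -0.09). The wild type adult library of this ratio also took part in choosing the loci. That choice favours lower ratios at the higher loci and higher ratios at the lower loci. The ERGO-1 targets T08B6.2, Y17D7B.4 and E01G4.5 had log2 ratios of -6.94, -6.72 and -5.42, and the pseudogene on clone Y105C5A had -4.83. In mRNA libraries of the same gonads, 33 of the 37 lower loci with an mRNA value averaged under 10 normalized reads, as did 67 of 282 higher loci and 545 of the other 1337. These mRNA values are not per length and include no L4 gonads.

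Immunoprecipitates from gravid adults carrying FLAG::hrde-1, or GFP::wago-1 together with mut-16::mCherry, were available as 1 pair of precipitate and input each, so their ratios are described without a test. The WAGO-1 precipitate over input had a median log2 ratio of 0.09 over the higher loci, -1.34 over the lower loci and -0.14 over the other tested loci. Of the 46 lower loci, 36 were 2-fold or more below input with WAGO-1, as were 29 of the 301 higher and 298 of the other 1654 loci. With HRDE-1 the medians were 0.28 over the higher, 0.26 over the lower and -0.02 over the other loci. The lower loci were divided with HRDE-1, since 16 of 46 were 2-fold or more below input and 27 were above it. Losses such as ZK930.6 and nhr-229 had HRDE-1 ratios of 1.23 and 0.69, whereas the ERGO-1 target Y17D7B.4 and the pseudogene Y17D7C.6 had -3.20 and -2.22.

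Libraries that the choice of loci did not use showed the same stage difference. The inputs of both immunoprecipitations (68 h adults, HRDE-1 and WAGO-1 strains) were set against 3 wild type L4 libraries of another set (52 h), each as a part of its WAGO signal. Both the source and the description of these L4 libraries give that stage, whereas the labels of their periodate-treated counterparts, not used here, name both stages. Strain, table and stage differ together in this contrast, and the tables were normalized separately, so it was given no test. Of the 301 higher loci, 300 were higher in the adult inputs on average, against 48.4% of all tested loci, and 268 were 2-fold or more higher, against 21.4%. Both inputs lay above all 3 L4 libraries at 295 of the 301, against 39.9%. Of the 46 lower loci, all 46 were lower in the inputs, against 51.6%, and 40 were 2-fold or more lower, against 8.00%. Both inputs lay below all 3 L4 libraries at all 46, against 43.6%. The higher loci held 11.9% and 14.2% of the signal in the HRDE-1 and WAGO-1 inputs, against 2.06%, 2.08% and 2.49% in the 3 L4 libraries. The lower loci held 1.17% and 0.99% in these inputs, against 4.20%, 3.89% and 3.68%. Over the 2001 loci the difference in these libraries ran with that of the stage table (Pearson's r 0.91, Spearman's rho 0.83).

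**Figure D5:**
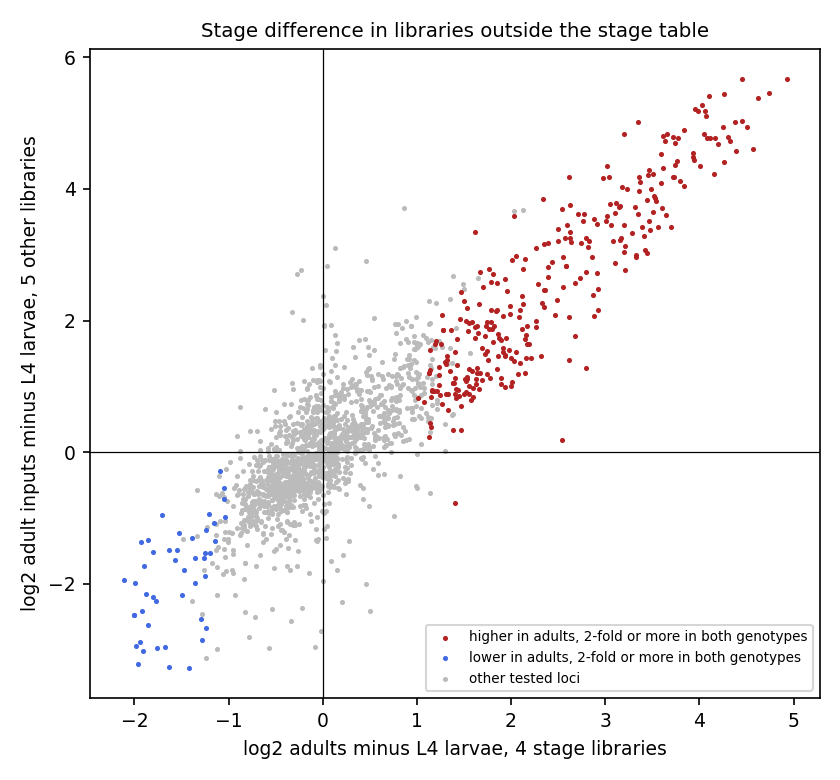
Each point is 1 of the 2001 tested loci; the horizontal axis is the log2 difference, adults minus L4 larvae, in the 4 stage libraries and the vertical axis the log2 difference of 2 adult input libraries minus 3 wild type L4 libraries of other tables. Of the 301 red loci 300 lie above 0 and all 46 blue loci lie below 0 on the vertical axis.

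Some changed loci were neighbours in the RefSeq annotation (assembly WBcel235, used for names and gene order only). Of 290 higher loci placed in its order, 31 lay next to another higher locus (10.7%), and 7 of 43 lower loci lay next to another lower one (16.3%). Of 1579 tested loci placed in it, 510 lay next to another tested locus (32.3%), a set many times denser, and no test of clustering was made. Runs of gains included ZC53.1, rgs-9 and ZC53.6 (log2 differences 1.86 to 3.21), the F-box genes fbxb-49 and fbxb-46 (3.95 and 3.98), and fbxc-39 and fbxc-42 (2.77 and 1.78). Runs of losses included Y43F8B.8, Y43F8B.17 and Y43F8B.28 (-1.97 to -1.67) and B0457.3 with B0457.4 (-1.63 and -2.12). The F-box pair fbxb-49 and fbxb-46 had similar values in each library, at 44.6 and 42.1 in henn-1 adults and 55.3 and 51.7 in wild type adults, against 2.82 and 2.56 in henn-1 and 1.82 and 1.56 in wild type L4 larvae. Such copies may share reads.

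The 3 loci named for large opposite changes in the genotypes were all of low or moderate signal. The octopamine receptor gene ser-3 had 14.9 in henn-1 adults against 21.5 in henn-1 L4 larvae, and 32.9 in wild type adults against 20.5 in wild type L4 larvae. K10C9.3, named rnst-2 in RefSeq, a gene for a T2 family ribonuclease, had 5.70 in henn-1 adults against 10.9 in henn-1 L4 larvae, and 15.1 in wild type adults against 10.3 in wild type L4 larvae. The coding sequence T25G12.8 had 29.1 in henn-1 adults against 69.1 in henn-1 L4 larvae, and 61.2 in wild type adults against 39.3 in wild type L4 larvae. In all 3 the henn-1 adult library was the lowest of the 4, and 0 of the 3 were called by stage (limma adjusted p 0.58 to 0.83; 0 at an unadjusted p under 0.05).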

How the data were processed

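Small RNA libraries of the stage set were compared as the authors deposited them: a normalized signal per WAGO locus, not whole numbers, per the values. How it was scaled, the aligner and the genome build are not stated there; between 29.4% and 49.2% of a library's values were whole multiples of a step (tolerance 0.1), so reads were not recovered. Each library was scaled to its sum. Loci with a deposited mean of at least 10 were fitted as log2(scaled signal + 1) with limma 3.58.1 in R 4.3.3 (genotype as the pair, trend on the mean, prior degrees of freedom 4.01, Benjamini-Hochberg). The fit was tested on simulated data. Fold changes on this scale understate low loci. A second description needs no test: 2-fold or more in both genotypes.

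Gonad and L4 tables of other sets also hold a normalized signal, for which the submitters' processing notes name DESeq2 1.18.1; the scaling of the immunoprecipitation table is not stated. Of their columns, 9 belong to other samples and were not used. Of 2434 loci, 2434 matched each small RNA table, 2062 the mRNA table and 1999 a RefSeq gene (WBcel235). Names follow a rule. First came the 10 largest increases and decreases past 2-fold in both genotypes whose higher stage mean passed the median. Then came up to 3 loci per list by adjusted p, the 5 strongest loci per stage and 3 with large opposite changes. Loci, lists and tests were chosen with earlier results of these data known. P-values measure only the spread between these libraries. Another scaling, pseudocounts of 5 and 0.5, other minimums, no trend, no pair, all 6 libraries and leaving out each library were tried as alternatives.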

Additional observations from a re-analysis of the deposited data

Results flagged for a closer look

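Opposite directions in the genotypes set apart 3 loci, none of them called by stage: henn-1 adults lay below henn-1 L4 larvae and wild type adults above wild type L4 larvae. The henn-1 difference minus the wild type difference, on the log2 scale, was -1.16 at ser-3, -1.33 at K10C9.3 and -1.85 at T25G12.8. With 1 library per genotype and stage this difference between genotypes was not tested. The loci were chosen for opposite changes, and not by the size of this difference alone. The gene ins-17, at -0.16 in henn-1 and 1.08 in wild type, was not among them.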

How the results depend on the processing

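The 301 gains and 46 losses past 2-fold in both genotypes were all called in the same direction on the deposited values (no scaling) and with totals that leave out the 20 strongest loci. With median-of-ratios factors 299 of 301 and all 46 were. Their choice by size favours such calls. Other counts moved. On the deposited values 874 loci were higher and 107 lower, 443 were gains and 19 losses, and 89.1% of the calls were higher, against 47.6% on the scaled signal. Median-of-ratios factors gave 549 higher and 364 lower (60.1% higher). A minimum mean of 50 left 196 higher, 353 lower (35.7% higher), 55 gains and 28 losses, and no minimum gave 492 gains. A minimum of 10 in the L4 libraries alone, chosen after seeing the data, left 82 gains and 46 losses, and a 4-fold threshold 140 gains and 0 losses. Pseudocounts of 5 and 0.5 gave 236 and 308 gains and 38 and 49 losses. With the pseudocount of 5, 296 of the 301 and all 46 were called. Without the genotype as replicate block, 69 were higher and 14 lower. A fit of all 6 libraries gave 334 higher and 109 lower, among them 271 of the 301 and 34 of the 46.

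Leaving out any of the 4 libraries leaves 3 libraries of unequal genotype and stage alone in the fit, with the lone library assumed to vary like the others. Then 0 loci were called higher or lower (limma), with 226 to 293 higher and 51 to 77 lower at an unadjusted p under 0.05. All 301 gains stayed above 0, the lowest at 0.24; of the 46 losses only T08B6.2 left its sign, at 0.04 without the henn-1 adult library. Over these fits the log2 difference changed sign at loci that were uncalled or strongly set by genotype: from -0.22 to 1.22 at B0564.11 (rde-11), -0.020 to 0.29 at F37H8.2, -0.022 to 0.18 at W03H9.2, -0.78 to 0.47 at K10C9.3, -0.82 to 0.23 at T25G12.8, -1.16 to 0.17 at Y82E9BR.21 (pals-18), -0.41 to 0.34 at cyp-33C2, -0.43 to 0.34 at egl-21, -2.34 to 0.30 at grd-16, -1.87 to 2.81 at ins-17, -0.72 to 0.13 at nlp-12, -0.47 to 0.62 at ser-3, -0.68 to 0.17 at ttn-1 and -0.31 to 0.17 at ugt-31. On the deposited values the sign changed at cyp-33C2 (0.36), egl-21 (0.34), ugt-31 (0.34), K10C9.3 (0.22), ttn-1 (0.14), T25G12.8 (0.11), nlp-12 (0.088) and eri-6 (0.075), and with median-of-ratios factors at cyp-33C2 (0.019) and egl-21 (0.0054). Scaling shifts all loci of a library alike; for the other changes the cause was not tested. Depth is unknown, so counting error at the low larval values is too.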

Other observations

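Several gains outside the lists are given as single genes; they were chosen after their values were seen and stand for no group, and the 2 genes of the neuron list (egl-21 and nlp-12) were not called. The active zone gene unc-10 had 55.2 in henn-1 adults and 179 in wild type adults, against 4.26 in henn-1 and 5.78 in wild type L4 larvae, and the neuropeptide receptor gene npr-11 had 24.5 and 38.4 in henn-1 and wild type adults, against 1.12 and 1.48 in henn-1 and wild type L4 larvae. Both subunits of calcineurin gained: tax-6, the catalytic subunit, had 86.8 and 59.5 in henn-1 and wild type adults against 17.9 and 7.19 in henn-1 and wild type L4 larvae, and cnb-1, the regulatory subunit, had 23.7 and 88.2 in henn-1 and wild type adults against 8.18 and 8.30 in henn-1 and wild type L4 larvae. The sex determination gene tra-2 had 46.1 and 32.1 in henn-1 and wild type adults, against 11.4 and 8.53 in henn-1 and wild type L4 larvae.

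Counts by name prefix were likewise made after the values were seen and rest on no fixed list. Of 3 sdz genes (SKN-1 dependent zygotic transcripts) tested, 2 were 2-fold or more higher in adults of both genotypes, as were pes-1 and vet-6, the only tested loci with these prefixes, against 15.0% of all tested loci. In sdz-26 the scaled signal was 224 in henn-1 adults and 282 in wild type adults, against 94.6 in henn-1 and 56.5 in wild type L4 larvae; in embryos it was 492 in henn-1 and 1074.5 in wild type. In pes-1, a forkhead gene, it was 46.3 and 48.7 in henn-1 and wild type adults, against 4.18 and 2.81 in henn-1 and wild type L4 larvae, with 55.4 and 124 in henn-1 and wild type embryos.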
